A study of Rattus norvegicus with 17 samples.

Results

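Histones are the proteins that package DNA, and the 32 histone genes on the array were followed in CD4+ T cells that had been sorted from inguinal lymph nodes; the rats were female Dark Agouti. They were chosen by name: each is annotated to 1 gene symbol that starts with H1f, H2a, H2b, H3f, H3c, H4c, H4f or Hist, and the row with the highest mean over 17 arrays stood for the gene. They were 32 of 14506 named genes. All rats were immunized with myelin oligodendrocyte glycoprotein (MOG), an antigen used in rats to start an autoimmune attack on the central nervous system, and cells were taken 7 days later. From 5 weeks before immunization the rats ate a vitamin D deprived diet (0 IU, 5 arrays), a regular diet (2 IU, 6 arrays) or a supplemented diet (10 IU, 6 arrays). The sources used here do not state the feed amount behind these IU, the rats' age or how many rats made up a sample, and no group was left unimmunized among the samples used.

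Core histones H2A, H2B, H3 and H4 form the spool of the nucleosome, and linker histone H1 closes the DNA around it. Most copies come from clustered, intronless genes that are transcribed in S phase, when new DNA is packaged, and whose mRNA ends in a stem-loop in place of a poly(A) tail. Replacement variants such as H2A.Z and H3.3 come from polyadenylated mRNA and are made throughout the cell cycle, and a further set is known from testis or oocyte. Of the 32 genes, 18 were replication-dependent linker or core histone genes, 6 were replacement variants and 8 were germline histones. The copies of the clusters are nearly identical, so a probe of one gene can read its relatives, and the values of single cluster genes are uncertain for that reason.

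Values are log2 expression as the authors deposited it, and the 25% of genes with the lowest mean over all arrays were left out of the tests. That filter kept 29 of the 32, at a mean log2 value of 5.321 or more. H2ac4, H2bu1 and H2ac21, all replication-dependent, had means of 5.188, 4.819 and 4.187 and were not tested in the fit reported here. The brightest were the variants H3f3a (mean 11.78), H2az1 (11.52) and H3f3b, against a highest mean of 9.832 (Hist2h3c2) among replication-dependent genes and 6.771 (H2ab3) among germline genes. These compare signals of different probes on the log2 scale and give no order of mRNA amounts.

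The T cell label was borne out by the arrays: all 8 CD4 T cell markers were above the level filter, with Cd3g at the 99.7th and Cd4 at the 95.5th percentile of gene means. Markers of other cells ran from the 1.9th percentile (S100a8) to the 90.5th (Prf1, on the CD8 T and NK cell list). Of the 8 CD4 T cell markers 4 were lower and 0 higher on the supplemented than on the regular diet. The lower ones were Cd4 (-0.59 on the log2 scale), Lck (-0.43), Cd3d (-0.35) and Cd3e (-0.29). All 8 had a mean log2 value of 8 or more, and of all genes that bright 50.4% were lower and 4.05% higher. The share of T cell markers called lower was thus near that of genes of like level. The array means of the 8 markers were 10.25 to 10.5 in supplemented rats, against 10.57 to 10.78 in regular rats. The supplemented arrays had a narrower range of values, with a standard deviation (SD) over all rows of 1.908 to 1.972, against 2.001 to 2.063 for the regular diet and 2.027 to 2.073 for the deprived diet. Supplemented replicates 2 and 5 were the narrowest, at 1.911 and 1.908. Each array mean of the B cell markers was 5.971 to 6.388 in supplemented rats, against 5.732 to 6.010 in regular rats. Of the 4 tested of 7 B cell markers 3 were higher than on the regular diet and 0 lower. All 4 had a mean log2 value under 8, and of all genes that dim 13.8% were higher and 10.4% lower. Ms4a1, which encodes the B cell protein CD20, averaged 5.117, below the level filter. Higher on the supplemented diet were also 1 of 2 plasma cell, 1 of 6 macrophage, monocyte and neutrophil, and 1 of 2 red blood cell markers. Of 5 CD8 T and NK cell markers 1 was lower and 0 higher, and 0 of 4 dendritic cell markers passed. The part of the T cell markers, the markers of other cells or the array spread in the results below was not tested beyond the fits given. In bulk RNA, fewer cells of a type and less RNA per cell cannot be told apart.

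On the supplemented diet most histone genes of the T cells were lower than on the regular diet. Of 29 tested genes 16 fell, 1 rose and 12 did not pass (limma, Benjamini-Hochberg over 10879 genes, adjusted p below 0.05), with a median difference of -0.24 on the log2 scale. Over all genes, 33.7% passed, 22.9% lower and 10.8% higher, with a median of 0.0006. Replication-dependent genes fell in 10 of 15 and rose in none, variants fell in 5 of 6, and of 8 germline genes 1 fell and 1 rose. Of the 29 tested genes, 6 were lower and 1 higher with no array of one diet overlapping the other. Of all tested genes, 9.92% were lower and 2.22% higher without overlap.

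**Figure D1:**
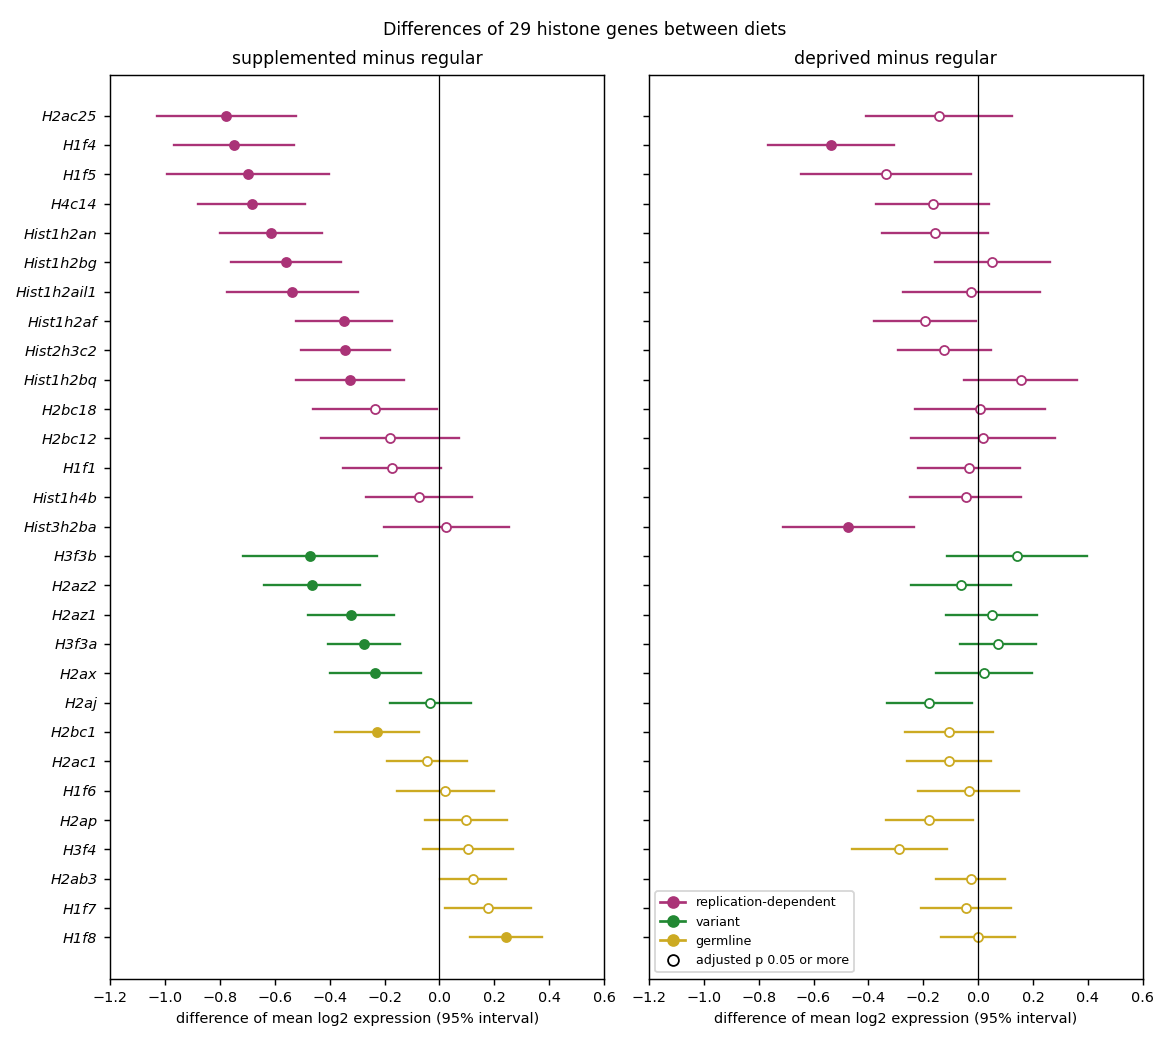
Difference of mean log2 expression (x axis) with its 95% interval for each of the 29 tested histone genes (y axis), supplemented minus regular on the left and deprived minus regular on the right; filled points passed the threshold. On the left 10 replication-dependent genes and 5 variants are filled and lie below 0, and on the right only H1f4 and Hist3h2ba are filled.

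The counts were also set beside those of all genes of like brightness. Of 10 histone genes with a mean log2 value of 8 or more, 9 fell and none rose, against 50.4% lower and 4.05% higher of all genes that bright. Of 19 dimmer histone genes 7 fell and 1 rose, against 10.4% lower and 13.8% higher of all dimmer genes. Across genes, which are not independent, the difference correlated with the mean level at -0.505 over the 10879 genes and at -0.362 over the 29 histone genes. With the SD of each array as a covariate, 0 histone genes and 0 of all genes passed, and of the 17 histone genes called before, all 17 kept their sign, 13 nearer to 0 and 4 farther from it. H1f4 was then at -0.33 (adjusted p = 0.523) and H3f3b at -0.01 (adjusted p = 0.988).

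**Figure D2:**
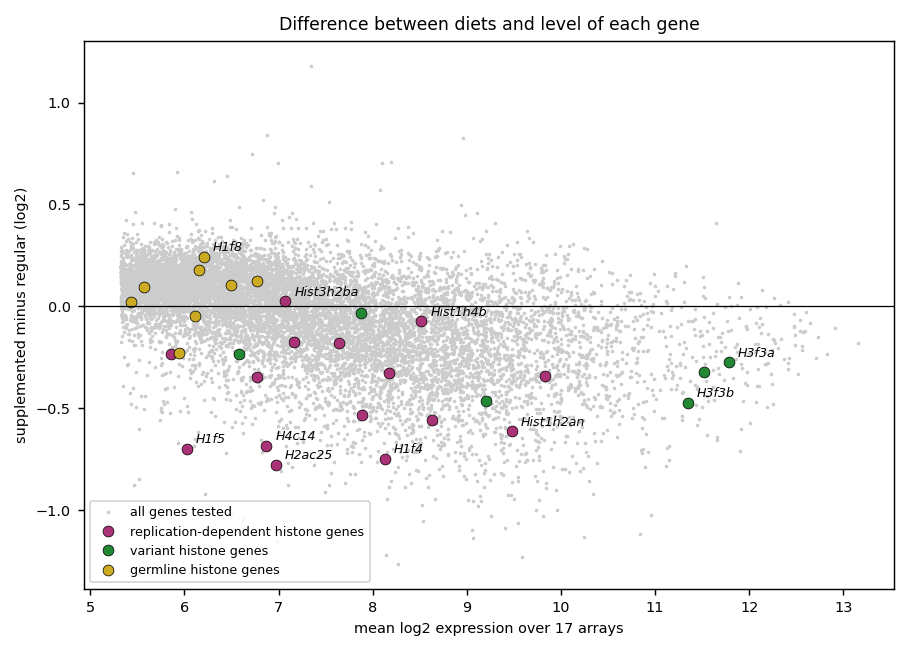
Supplemented minus regular difference on the log2 scale (y axis) against mean log2 expression over the 17 arrays (x axis) for all 10879 genes in grey and the 29 histone genes in colour by class. H2ac25, H4c14 and H1f5 lie low among genes of mean log2 under 8, while H3f3a and H3f3b lie within the cloud of bright genes.

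Among linker histones, H1f4 and H1f5 fell and H1f1 did not pass. H1f4, which encodes H1.4, read 7.83, 8.16, 8.19, 8.09 and 7.795 on the deprived arrays, 8.36 to 8.73 on the regular arrays (median 8.58) and 7.445 to 8.095 on the supplemented arrays (median 7.82). The regular arrays were the highest, and neither other diet overlapped them. Supplemented minus regular was -0.75 (SE 0.105, n = 6 and 6, limma adjusted p = 1.83e-05), a fold of 0.596. H1f5, which encodes H1.5, read 6.12, 5.93, 6.18, 6.27 and 5.67 on deprived, 5.99 to 6.80 on regular (median 6.37) and 5.30 to 5.90 on supplemented arrays (median 5.81). All 6 supplemented arrays lay below the regular ones, by -0.70 on average (SE 0.143, adjusted p = 0.00076). H1f1, for H1.1, differed by -0.17, with a 95% interval of -0.351 to 0.00386 (adjusted p = 0.118).

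The upstream sequences of these 3 genes are shown because the linker genes share promoter boxes but did not all pass. They are the 250 bases before the annotated start, from RefSeq on GRCr8, 5′ to 3′ on the gene's strand; capitals mark the H1 box AAACACA, the CCAAT box CCAAT, the TATA box TATAAA and the octamer ATTTGCAT, searched on both strands, none of which contains another. H1f4 is at chr17:41914175-41914424 (plus strand), H1f5 at chr17:47421625-47421874 (plus strand) and H1f1 at chr17:41794869-41795118 (minus strand).
H1f4: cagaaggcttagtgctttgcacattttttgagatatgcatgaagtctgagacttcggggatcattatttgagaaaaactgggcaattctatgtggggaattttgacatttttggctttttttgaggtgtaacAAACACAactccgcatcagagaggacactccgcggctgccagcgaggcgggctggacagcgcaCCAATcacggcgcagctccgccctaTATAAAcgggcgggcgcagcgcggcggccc
H1f5: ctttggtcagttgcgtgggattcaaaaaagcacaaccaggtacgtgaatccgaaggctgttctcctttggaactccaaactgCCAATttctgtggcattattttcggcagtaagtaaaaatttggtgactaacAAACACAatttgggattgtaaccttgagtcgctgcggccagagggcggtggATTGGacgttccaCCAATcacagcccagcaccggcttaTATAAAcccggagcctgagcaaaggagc
H1f1: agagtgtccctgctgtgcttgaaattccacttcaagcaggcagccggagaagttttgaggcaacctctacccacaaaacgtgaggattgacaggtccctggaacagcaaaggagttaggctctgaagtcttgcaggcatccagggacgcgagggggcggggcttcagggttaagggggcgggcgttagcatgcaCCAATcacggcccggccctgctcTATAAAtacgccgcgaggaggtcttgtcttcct
The H1 box began at position -118 in H1f4 and -117 in H1f5, counted from the annotated start, and was not found in the window of H1f1, while all 3 hold a CCAAT box followed by a TATA box. The germline linker genes H1f6 and H1f8 also hold the H1 box, at -103 and at -129, the latter on the minus strand. H1f6 did not pass (0.02) and H1f8 rose (0.24) on the supplemented diet. Of the 8 germline histone promoters 5 held the H1 box letters. The windows of H2ac1 and H2bc1 among them overlap on opposite strands and hold the same site, at -224 in H2ac1 and -22 in H2bc1. Over 33469 rat promoters of the same length, 6.08% held the H1 box letters, 34% CCAAT and 12.9% TATAAA. A match of letters is a description of the window only.

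Of the core H2A genes, which encode the nucleosome's H2A, all 4 tested replication-dependent members fell, against 22.9% lower of all genes. H2ac25 read 6.93, 7.18, 7.22, 7.35 and 7.05 on deprived arrays, 7.055 to 7.64 on regular arrays (median 7.225) and 6.195 to 7.10 on supplemented arrays (median 6.46). The ranges met only through supplemented replicate 3, and the difference of -0.78 (SE 0.122, adjusted p = 5.98e-05) was the largest fall among the histone genes. Hist1h2an read 9.51, 9.65, 9.77, 9.58 and 9.42 on deprived arrays, 9.48 to 9.93 on regular arrays (median 9.73) and 8.90 to 9.32 on supplemented arrays (median 9.155). Its supplemented arrays lay below all others, with a difference from the regular diet of -0.61 (SE 0.0889, adjusted p = 2.52e-05). A second, dimmer row of Hist1h2an (mean 7.856) went the other way, at 0.223 on the same scale, so its rows disagree, and the mean of both rows was at -0.195 (adjusted p = 0.0301). Hist1h2ail1 (-0.54, SE 0.115) and Hist1h2af (-0.35, SE 0.085) fell too, and the second row of Hist1h2ail1 was at -0.216.

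Among core H2B genes, 2 of the 5 tested replication-dependent members fell, against 22.9% lower of all genes. Those 2 had mean log2 values of 8 or more, and of all genes that bright 50.4% were lower. Hist1h2bg read 8.83, 9.02, 8.83, 8.94 and 8.68 on deprived arrays, 8.58 to 8.98 on regular arrays (median 8.80) and 7.92 to 8.61 on supplemented arrays (median 8.22). Only the highest supplemented array reached the lowest regular one, and the difference was -0.56 (SE 0.097, adjusted p = 0.000157). Hist1h2bq was lower by -0.33 (SE 0.0947, adjusted p = 0.0115), a call lost under quantile normalization and under cyclic loess. H2bc18 (-0.24, 95% interval -0.462 to -0.0101), H2bc12 (-0.18, -0.431 to 0.0716) and Hist3h2ba (0.03, -0.203 to 0.254) did not pass. A further 3 rows that the annotation gives to 3 or 4 H2B genes at once, and that were therefore no members, averaged 8.253 to 8.365 on supplemented arrays, against 9.205 to 9.317 on regular arrays. Their differences of -0.922 to -0.968 were larger than that of any single H2B gene, and they carry no test here.

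The replication-dependent H3 gene Hist2h3c2 read 9.79, 9.89, 10.015, 10.0 and 9.64 on deprived arrays, 9.77 to 10.17 on regular arrays (median 10.01) and 9.48 to 9.86 on supplemented arrays (median 9.64). Of the supplemented arrays only replicate 2 reached the regular range, and the difference of -0.34 passed (SE 0.078, adjusted p = 0.00194), a call that quantile normalization and cyclic loess each ended. Its other 2 rows, dimmer and alike in their values, were at -0.12. The H4 genes differed from each other. H4c14 read 7.00, 7.29, 6.94, 6.89 and 6.86 on deprived arrays, 7.10 to 7.30 on regular arrays (median 7.13) and 6.21 to 6.84 on supplemented arrays (median 6.47), a difference of -0.68 with no overlap (SE 0.0941, adjusted p = 1.44e-05). The brighter Hist1h4b was at -0.07, with a 95% interval of -0.267 to 0.119.

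**Figure D3:**
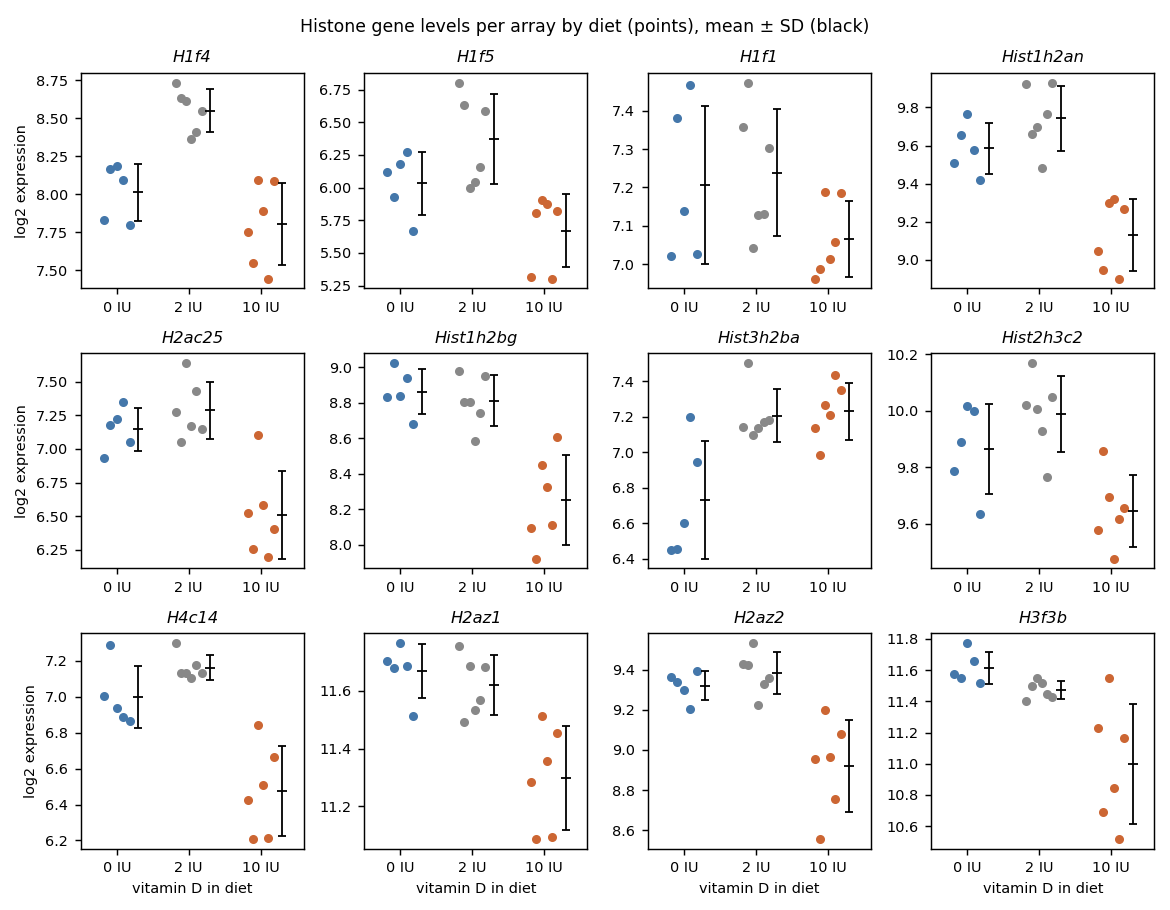
Log2 expression (y axis) on each array for 12 histone genes by vitamin D in the diet (x axis: 0, 2 and 10 IU); points are arrays and black bars the mean ± SD. H1f4 is highest on the 2 IU arrays, Hist3h2ba is low on 3 of the 5 arrays at 0 IU, and the other core genes and the variants shown have their lowest mean on the 10 IU arrays.

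Replacement variants fell in 5 of 6, against 22.9% lower of all genes. H2az1, H2az2, H3f3a and H3f3b had mean log2 values of 8 or more, and of all genes that bright 50.4% were lower. H2az2, one of the genes for H2A.Z, a variant found at active promoters and enhancers, read 9.36, 9.34, 9.30, 9.21 and 9.39 on deprived arrays, 9.22 to 9.53 on regular arrays (median 9.39) and 8.56 to 9.20 on supplemented arrays (median 8.96). All 6 supplemented values were under those of the other diets, and supplemented minus regular was -0.46 (SE 0.0845, adjusted p = 0.00026). H2az1, the other H2A.Z gene, read 11.70, 11.68, 11.76, 11.69 and 11.51 on deprived arrays, 11.49 to 11.75 on regular arrays (median 11.63) and 11.09 to 11.51 on supplemented arrays (median 11.32). It changed by -0.32 (SE 0.0756, adjusted p = 0.00258), and its second row by -0.343. H3f3b, which encodes H3.3, the H3 placed outside replication, read 11.575, 11.55, 11.77, 11.66 and 11.52 on deprived arrays, 11.40 to 11.55 on regular arrays (median 11.47) and 10.52 to 11.55 on supplemented arrays (median 11.00). Supplemented replicate 3 was as high as the regular arrays and the rest lower, with a difference of -0.47 (SE 0.118, adjusted p = 0.004). H3f3a, which encodes the same protein, changed by -0.28 (SE 0.0638, adjusted p = 0.00228) without overlap, and its 4 rows ran from -0.376 to -0.246. The calls of H3f3a and H2az1 ended under quantile normalization and under cyclic loess, and that of H3f3b under cyclic loess. H2ax, whose protein H2A.X is phosphorylated at DNA breaks, changed by -0.23 (SE 0.0802, adjusted p = 0.0288), a call that ended without supplemented replicate 2 or 6, without regular replicate 1 or 2, without supplemented replicates 2 and 5 together and with array weights (highest adjusted p = 0.0838 with 1 array left out). H2aj, for H2A.J, was at -0.03 (95% interval -0.182 to 0.116).

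Germline histones were dim in these T cells, at mean log2 values of 5.434 to 6.771. H1f8, known as the oocyte linker histone, read 5.95, 6.08, 6.11, 6.26 and 6.22 on deprived arrays, 6.06 to 6.23 on regular arrays (median 6.10) and 6.26 to 6.54 on supplemented arrays (median 6.34). It was the only histone gene that rose, by 0.24 (SE 0.0626, adjusted p = 0.00512), and it did not pass after cyclic loess. The testis H2B gene H2bc1 fell by 0.23 (SE 0.0737, adjusted p = 0.0207), which ended without regular replicate 2 (adjusted p = 0.0529). The other 6 ran from -0.05 for H2ac1 to 0.18 for H1f7 and did not pass. Among all genes with a mean log2 value under 8, more were called higher than lower, as given above.

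The lowest supplemented value belonged to replicate 2 or 5, the arrays with the narrowest range, in 12 of the 16 genes that fell. In all 16, the mean of the other 4 supplemented arrays was below the regular mean. The 16 genes were picked as lower from these same arrays, so both counts only describe them and give no separate support. The same counts were not made for all genes called lower. H1f4 averaged 7.497 on replicates 2 and 5 and 7.954 on the other 4, against 8.549 on the regular arrays. H3f3b averaged 10.6 on replicates 2 and 5 and 11.2 on the other 4, against 11.47 on the regular arrays. Without replicates 2 and 5, 16 of 29 histone genes passed, 15 lower and 1 higher. Of all 10879 genes 2171 passed in that fit, in place of 3661.

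**Figure D4:**
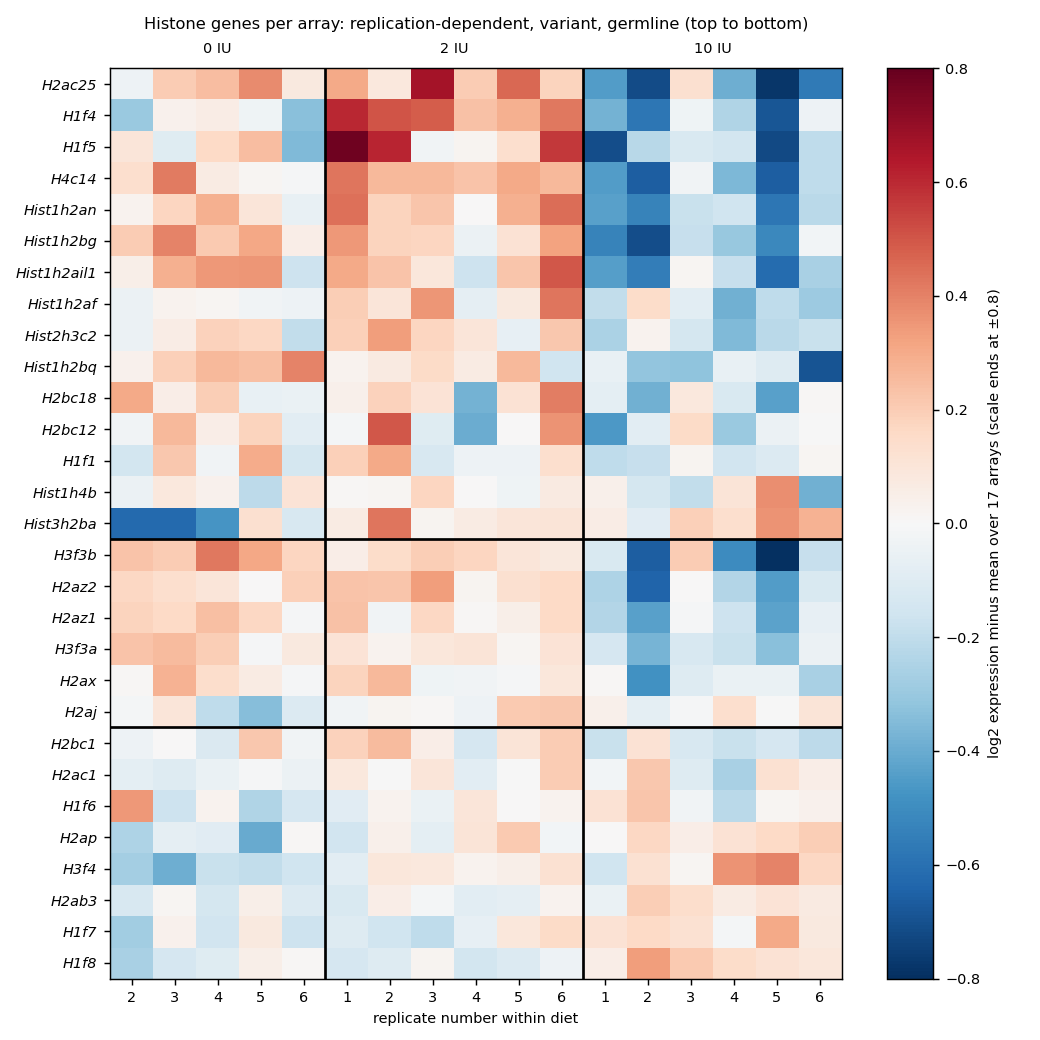
Log2 expression of each tested histone gene (rows) on each array (columns, grouped by diet and labelled by replicate number), as the difference from the gene's mean over 17 arrays. Supplemented replicates 2 and 5 are the deepest blue for H3f3b and H2ac25, and replicate 3 is the highest of the supplemented arrays for both.

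Within diets, genes differed in how far they moved together. After each diet's mean was taken out, the 105 pairs of replication-dependent genes had a median correlation of 0.185 over the 17 arrays, with a range of -0.565 to 0.905. The highest was that of Hist1h2ail1 with Hist1h2an, followed by H1f4 with H2az1 at 0.846. Germline and variant genes had a median of -0.23 over 48 pairs. The pairs share arrays, array spread and in part probes of near-identical sequence, so these values describe the arrays only.

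On the deprived diet few histone genes differed from the regular diet. Of 29 genes 2 fell and none rose, against 1.67% of all genes passing, 0.184% lower and 1.49% higher, with a median of -0.05 for the histone genes and -0.0005 for all genes. The linker gene H1f4 was lower by -0.54 (SE 0.11, n = 5 and 6, limma adjusted p = 0.0181), with all 5 deprived arrays below all 6 regular ones. It passed in each of the 12 other fits, not counting those with 1 array left out. They included the fit with array spread as a covariate (-0.66, adjusted p = 0.00571). The call ended without deprived replicate 2 (adjusted p = 0.06) or 6 (0.0699). H1f4 was lower on both other diets, in comparisons that share the regular arrays. The diets did not overlap in 2 histone genes, both lower, H1f4 and H3f4, against 1.01% lower and 4.52% higher of all genes.

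The H2B gene Hist3h2ba read 6.45, 6.45, 6.60, 7.20 and 6.95 on deprived arrays, 7.095 to 7.50 on regular arrays (median 7.16) and 6.98 to 7.435 on supplemented arrays (median 7.24). Deprived replicates 2, 3 and 4 were low and replicate 5 lay within the regular range. The difference of -0.47 (SE 0.116, adjusted p = 0.0392) was no longer called under quantile normalization (0.0985), cyclic loess (0.0697) or with array spread as a covariate (0.133). It was also lost without any 1 of 9 arrays, namely deprived replicates 2, 3, 4 and 6 and regular replicates 1, 2, 4, 5 and 6, with adjusted p up to 0.122. The other 27 genes did not pass, among them H3f4, a testis H3 gene, at -0.29 (adjusted p = 0.0813), whose deprived arrays all lay below the regular ones, and H1f5 at -0.33 (95% interval -0.645 to -0.0251, adjusted p = 0.257).

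Hist3h2ba and H2ac25 belong to one small group of neighbouring histone genes and differed in which diet they were low on. Their upstream windows are shown for that reason, from the same RefSeq table on GRCr8 with the same capitals. H2ac25 is at chr10:44233033-44233282 (plus strand) and Hist3h2ba at chr10:44225171-44225420 (plus strand). The same group holds H2bu1, which was not tested, and H3f4, whose deprived arrays lay below the regular ones as given above.
H2ac25: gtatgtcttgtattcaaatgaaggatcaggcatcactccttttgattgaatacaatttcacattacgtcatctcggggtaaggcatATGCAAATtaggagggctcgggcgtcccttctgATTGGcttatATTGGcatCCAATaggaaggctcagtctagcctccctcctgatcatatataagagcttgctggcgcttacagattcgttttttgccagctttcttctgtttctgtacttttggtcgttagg
Hist3h2ba: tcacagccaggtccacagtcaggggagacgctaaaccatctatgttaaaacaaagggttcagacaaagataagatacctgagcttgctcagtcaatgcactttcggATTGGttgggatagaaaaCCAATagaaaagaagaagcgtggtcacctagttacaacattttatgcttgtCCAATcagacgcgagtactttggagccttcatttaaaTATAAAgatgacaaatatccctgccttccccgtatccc
Both windows hold 3 CCAAT boxes. The octamer was found in H2ac25, on the minus strand at position -164, and not in Hist3h2ba. TATAAA was found in Hist3h2ba and not in H2ac25. The window of H2bu1, at chr10:44233066-44233315 on the minus strand, overlaps that of H2ac25 and holds the same octamer at its own position -61. The octamer letters were in 1.56% of all rat promoters, in 7 of the 17 replication-dependent histone promoters in the table, and in 4 of 6 for H2B.

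Supplemented and deprived diets were compared last. Of 29 histone genes 13 were lower and 6 higher on the supplemented diet, against 47.2% of all genes passing, 28.6% lower and 18.6% higher, with a median of -0.21 for the histone genes. The diets did not overlap in 6 lower genes and 1 higher gene, against 17.7% and 6.4% of all genes. With each array centred on its median, which moved the median of all genes to -0.103, the split was 18 lower and 2 higher. In that fit 4784 of all 10879 genes passed, and their split by direction was not counted. Without that centring, of 10 histone genes with a mean log2 value of 8 or more, 8 were lower and 0 higher. Of all 3385 genes that bright, 2101 were lower and 106 higher. Of 19 dimmer histone genes, all germline ones among them, 5 were lower and 6 higher, against 1012 and 1913 of 7494 dimmer genes. By class, replication-dependent genes were lower in 8 of 15 and higher in 1, and variants were lower in 5 of 6. Germline genes were higher in 5 of 8 and lower in none. Among those lower were Hist1h2bg (-0.61, SE 0.102, adjusted p = 5.94e-05), H2ac25 (-0.64 on the log2 scale, SE 0.128), H3f3b (-0.62, SE 0.124) and H4c14 (-0.52, SE 0.0987). H1f4 was at -0.21, with a 95% interval of -0.44 to 0.0183 (adjusted p = 0.117), so a difference between these diets was not detectable for it. H1f5 passed narrowly (-0.36, adjusted p = 0.0499) and was lost without any 1 of 9 arrays, namely deprived replicates 2 to 5, supplemented replicates 1, 2 and 5 and regular replicates 5 and 6. Of 11 other fits it passed in 5; the filter left out (adjusted p = 0.0542), array weights (0.0717), a robust variance trend (0.0636), the replicate block (0.071), leaving out supplemented replicates 2 and 5 (0.151) and array spread as a covariate (0.998) each ended it. Hist3h2ba was higher by 0.50 (SE 0.116, adjusted p = 0.0015), and the germline genes that were higher were H3f4 (0.39), H2ap (0.28), H1f8 (0.24), H1f7 (0.22) and H2ab3 (0.15). Among these 5 germline genes, the calls of H2ap, H1f8, H1f7 and H2ab3 ended under each of quantile normalization, median centring and cyclic loess. The lower H2az1, H2az2, H3f3a, Hist1h2an and Hist2h3c2 ended under the first and last of these. With the mean of all rows of a gene, Hist1h2an (-0.08, adjusted p = 0.356) and Hist2h3c2 (-0.13, adjusted p = 0.0851) did not pass either, and Hist2h3c2 also missed with the replicate block (-0.22, adjusted p = 0.0523). The H2ab3 call was lost without any 1 of 12 arrays, that of H1f7 without deprived replicate 2, 4 or 6 or supplemented replicate 5, that of Hist2h3c2 (-0.22) without deprived replicates 3, 4 or 5 or supplemented replicates 1, 4 or 5, and that of H2ax (-0.26) without deprived replicate 3. H2ab3 passed in 3 of 12 other fits and H1f7 in 6 of 11, and the calls of H2ab3, H1f7 and H2ax also ended without supplemented replicates 2 and 5 together.

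Genes that serve histones were read from 3 lists. Histone chaperones and nucleosome assembly factors were lower on the supplemented than on the regular diet in 13 of 20, higher in 0, with a median of -0.31, against 22.9% lower and 10.8% higher of all genes. Of the 13 listed genes with a mean log2 value of 8 or more, 12 were lower, against 50.4% of all genes that bright, and of the 7 dimmer ones 1, against 10.4%. They included Anp32e, the H2A.Z chaperone (-1.02 on the log2 scale, SE 0.145), the FACT subunits Ssrp1 (-0.70, SE 0.0888) and Supt16h (-0.61, SE 0.0924), the histone-binding protein Rbbp7 (-0.56, SE 0.0764) and Nasp, a carrier of H3 and H4 (-0.49, SE 0.0866). Genes of histone mRNA synthesis and end processing were lower in 4 of 14 and higher in 1, near the 22.9% and 10.8% of all genes. By gene, the cleavage factors Cpsf3 (-0.46) and Cpsf2 (-0.53), Nono (-0.48) and the cyclin gene Ccne1 (-0.34) fell, and Pou2f1, whose protein Oct-1 binds the octamer, rose by 0.21 (SE 0.0598, adjusted p = 0.00925). Replication genes fell in 14 of 22 and rose in 0, again beside 22.9% and 10.8% of all genes; of the 6 brighter ones 5 fell, against 50.4%, and of the 16 dimmer ones 9, against 10.4%. They included Pcna, the replication clamp, at -0.71 (SE 0.11) and the helicase subunit Mcm7 at -0.63 (SE 0.0931). On the deprived diet 0 of the 20 chaperone genes and 0 of the 22 replication genes passed by limma (4 and 6 of them at an unadjusted p below 0.05), with medians of 0.10 and 0.04, and of the 14 processing genes Casp8ap2, a factor of histone gene transcription, rose by 0.29 (SE 0.0681, adjusted p = 0.0321). The array means of the replication list were 6.997 to 7.291 on supplemented arrays, against 7.300 to 7.561 on regular arrays. Replication-dependent histone genes were lower there in 10 of 15. On the deprived diet their median was -0.12, against the 0.04 of the replication list. Whether the list and the histone genes moved together over arrays was not tested, nor was the part of the replication genes.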

How the data were processed

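RNA of sorted CD4+ T cells was hybridised to 17 arrays, 1 per sample, from 250 ng of total RNA per the labels. The values are log2 expression per transcript cluster, as the authors deposited them; the submitters' processing notes name RMA and Partek 6.0, and the log base was taken from their range. The sources used here do not give the probe file, build or filters. RMA quantile-normalizes probes and summarizes them, so unequal hybridisation of probes shared by near-identical histone genes cannot be undone.

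Of 29214 rows, 15310 had 1 symbol in the platform annotation, 323 several, and 13581 were not listed. The brightest row stood for each of 14506 genes, and 10879 stayed after the dimmest 25% were left out. One limma 3.58.1 model (lmFit, eBayes; R 4.3.3; 14 residual degrees of freedom) over the 3 diets gave 3 contrasts, adjusted with Benjamini-Hochberg over all genes at 0.05. The script was tested on simulated data. The number of arrays limits the precision; the labels call the samples biological replicates, and a p-value reflects only how these samples vary.

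The members, lists and alternatives were chosen with earlier results of these data known, and the level of 8 that separates brighter from dimmer genes was set after the values were seen. Genes named with values per array follow a rule: the H2A.Z, H2A.X and H3.3 genes, up to 12 called members per contrast by p, up to 3 per histone class, and the 3 dim genes; from each list of other genes, up to 4 by p in supplemented minus regular. Nasp, Ccne1, Casp8ap2 and the remaining members were named after their values were seen. Macroh2a1, H1f0 and H1f10, also in that rule, are no members and were not analysed here. Alternatives were 3 normalizations, 2 filters, the mean of all rows of a gene, array spread as a covariate, array weights, a variance trend with robust moderation, the replicate number as a block, only the 2 diets compared, supplemented replicates 2 and 5 left out, and each array left out. Promoter windows came from RefSeq for GRCr8 and matched 31 of the 32 genes.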

Additional observations from a re-analysis of the deposited data

Results flagged for a closer look

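Of 87 sets of arrays checked (29 genes on 3 diets), 2 held an array far from the others, and chance alone flags about 5% of such sets. H2bc1 read 6.054 on supplemented replicate 2, while the other 5 supplemented arrays lay between 5.731 and 5.814. Hist3h2ba read 7.502 on regular replicate 2, while the other 5 regular arrays lay between 7.095 and 7.18. Without that array the lower Hist3h2ba of deprived rats did not pass (-0.41, adjusted p = 0.0772).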

How the results depend on the processing

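For supplemented minus regular the count of histone genes called was 17, between 15 and 18 with 1 array left out and 12 to 19 in the other fits, except 0 with array spread as a covariate. For supplemented minus deprived it was 19, between 15 and 20 with 1 array left out, and 0 with that covariate. The other fits gave 13 to 20, with 13 under quantile normalization and under cyclic loess. For deprived minus regular it was 2, between 0 and 3 with 1 array left out, and 1 under quantile normalization, cyclic loess or array spread as a covariate. In this contrast 182 of all genes passed as reported. Quantile normalization left 40, cyclic loess 84 and the covariate 68, while array weights gave 889, a fit of the 2 diets alone 466, and leaving out supplemented replicates 2 and 5 gave 301. Leaving those out gave 2171 in place of 3661 for supplemented minus regular.

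In supplemented minus deprived, the sign turned with array spread as a covariate for H1f7 (-0.141), H2ab3 (-0.045), H2ax (0.023), H2az1 (0.045), H2az2 (0.169) and H4c14 (0.009), and for Hist2h3c2 after quantile normalization (0.029) and cyclic loess (0.024); none of these passed there. Every supplemented array had a smaller spread than every other array, so spread and this diet cannot be told apart. With the replicate block the counts were 17, 3 and 17 for supplemented minus regular, deprived minus regular and supplemented minus deprived. The numbers did not pair the arrays: same-numbered arrays of different diets correlated at -0.207 to 0.195 over genes, and 1 of 17 arrays correlated best with its own number. The sources used here give no scan date or hybridisation batch.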
